A study of Mus musculus with 96 samples.

Results

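The genes described here encode 8 coactivators that work at active enhancers: Ep300, Crebbp, Brd2, Brd3, Med1, Med12, Cdk8 and Nipbl. They were chosen by symbol, each symbol was matched to its Ensembl gene, and they are 8 of the 37620 genes listed in each count table. RNA-seq of mouse ESCs was deposited as 7 count tables, and each table compares 2 libraries of a changed state with 2 libraries of its own control. In all, 26 RNA-seq libraries of 13 groups were used, and peak lists of histone marks and chromatin proteins from the same series were used to describe the promoters of 7 of the 8 genes. All cells were ESCs grown with serum and LIF.

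Rybp+/+ ESCs were Rybp-floxed cells of the line R7.15, and Rybp-/- ESCs were the same line after 5 µM 4-hydroxytamoxifen (4-OHT) for 4 days. shEV, shRybp and shWdr5 ESCs were R1 cells with an empty vector or with a short hairpin RNA against Rybp or Wdr5, and the shEV libraries served as control for both knockdowns. TF-AA mutation and WT ESC libraries also came from R1 cells, and the labels do not say what TF-AA stands for. WT.RYBP and RYBP phase disruption ESCs were R7.15 cells that carry RYBPfl/fl and Rosa26::CreERT2 and had received 4-OHT. The first overexpressed WT RYBP, and the second RYBP with a deletion of 21 amino acids, so the floxed alleles, the Cre and 4-OHT are shared by both groups. Tet.RYBP.vehicle and Tet.RYBP.DOX ESCs were J1 cells with RYBP under a Tet-on system, without and with doxycycline (DOX). rTRS NTC and rTRS DOX are labels of the line rTRS, which holds a DOX-induced integration of Rybp and Stat3. Peak lists came from Rybp+/+ and Rybp-/- ESCs, and for STAT3 and RING1B also from R1 ESCs with DOX-inducible Rybp and Stat3, without and with DOX. How these R1 cells relate to the line rTRS is not stated here. The labels do not say that the libraries of a group came from separate cultures. Each p-value thus weighs a difference against the spread between these libraries, pooled over groups and moderated across genes, and this spread may be technical.

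p300 (Ep300) and CBP (Crebbp) are related acetyltransferases that acetylate histone H3 at lysine 27 (H3K27ac), the mark used to find active enhancers and super-enhancers. BRD2 and BRD3 belong to the BET family, whose bromodomains bind acetylated lysines and bring elongation factors to genes. Mediator is a large complex that links enhancer-bound factors with RNA polymerase II: MED1 is a subunit of its core that many activators contact, and MED12 and the kinase CDK8 belong to a module that attaches to the core reversibly. NIPBL loads cohesin, which holds DNA loops, and occupies enhancers together with Mediator in ESCs. RYBP is a Polycomb protein and WDR5 a subunit of the complexes that methylate H3 at lysine 4 (H3K4me3), and the study asked what RYBP does at super-enhancers.

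The libraries held 14512857 to 81049618 counts assigned to genes, and all 8 genes passed the filter on low counts in every table. Levels are given in CPM, the counts of a gene scaled to the size of its library. Rybp was at 110 and 110 CPM in Rybp+/+ ESCs and at 24.8 and 25.0 CPM in Rybp-/- ESCs. It was at 85.6 and 86.4 CPM in shEV and at 35.8 and 36.5 CPM in shRybp ESCs. Wdr5 was at 350 and 343 CPM in shEV and at 60.0 and 58.1 CPM in shWdr5 ESCs, and Rybp was at 135 and 145 CPM with vehicle and 521 and 535 CPM with DOX in Tet.RYBP ESCs. In the libraries labelled rTRS DOX, Rybp was at 102 and 99.7 CPM against 113 and 110 CPM in rTRS NTC. Rybp RNA thus did not rise there as the label would have it (log2 fold change -0.15, adjusted p = 0.076 by edgeR's quasi-likelihood test). The level of Stat3, the other gene of that label, is not reported here. Defining ESC markers, 8 genes with Pou5f1, Sox2 and Nanog among them, summed to between 3733 and 8653 CPM in every library.

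Per kilobase of gene length, Brd2 had the highest level of the 8 genes in the control group of every table, between 49.6 and 109.2 CPM per kb. Cdk8 followed at rank 2 or 3, with 21.5 to 35.0 CPM per kb. Ep300, Nipbl and Brd3 shared ranks 2 to 5, at 13.5 to 28.8, 11.6 to 25.3 and 17.3 to 23.2 CPM per kb. Med1 was at rank 6 or 7, with 7.74 to 13.5 CPM per kb, and Crebbp at rank 6 to 8, with 4.32 to 11.1 CPM per kb. Med12 was at rank 7 or 8, with 5.96 to 7.73 CPM per kb. Neighbours in this order overlapped between libraries only in WT ESC, for Nipbl and Ep300, and in Tet.RYBP.vehicle, for Nipbl with Cdk8 and Cdk8 with Brd3.

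**Figure D1:**
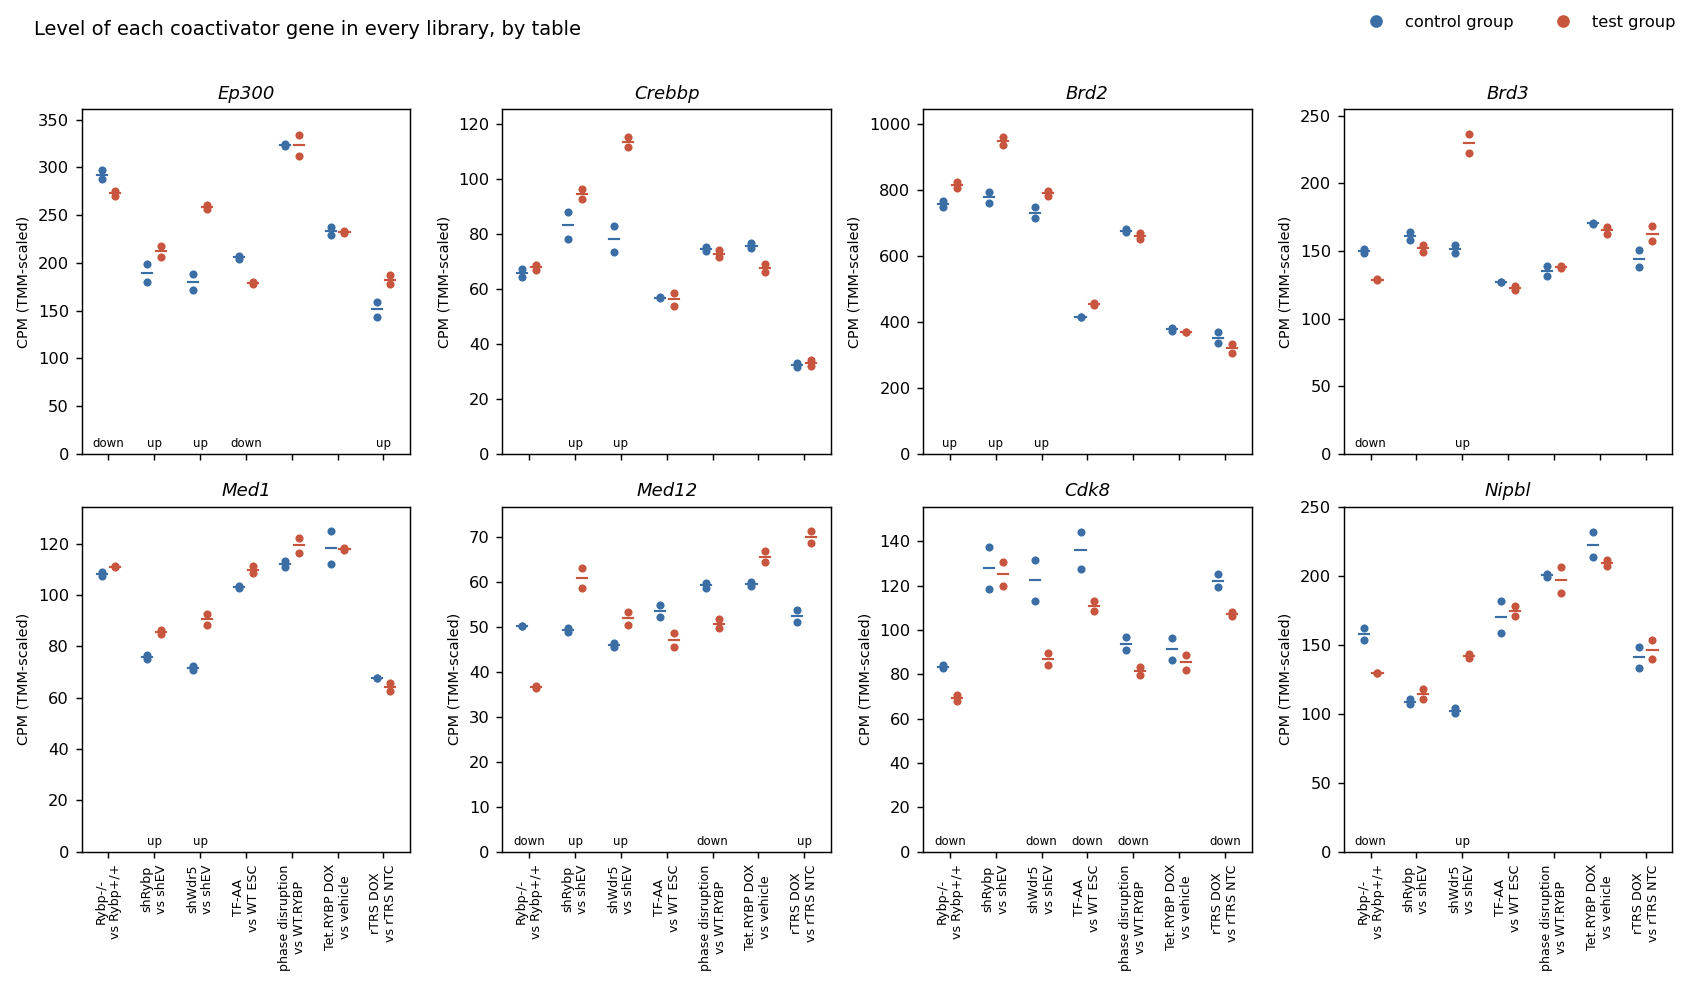
Level of each of the 8 genes in every library, in CPM after scaling by TMM (edgeR's trimmed mean of M values), with 1 panel per gene and the 7 comparisons along the x axis. Points are libraries, blue for the control group and red for the test group, bars are group means, and "up" or "down" marks adjusted p under 0.05. Brd3 stands at 222 and 237 CPM in shWdr5 against 148 and 154 CPM in shEV, and Med12 at 36.8 and 36.4 CPM in Rybp-/- against 50.3 and 50.2 CPM in Rybp+/+.

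The promoters of the genes were read from mm9, the build to which the authors aligned, as 250 bases before and 50 bases from the start site. Those of Med12, which had the widest range of fold change over the 7 comparisons, and of Crebbp, which had the most CG dinucleotides of those given, are shown, and CG is in capitals. Promoter and peak values are given for 7 genes, at the annotated 5′ end of each, and those of Brd3 are not reported.

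Med12, chrX:98469119-98469418, plus strand: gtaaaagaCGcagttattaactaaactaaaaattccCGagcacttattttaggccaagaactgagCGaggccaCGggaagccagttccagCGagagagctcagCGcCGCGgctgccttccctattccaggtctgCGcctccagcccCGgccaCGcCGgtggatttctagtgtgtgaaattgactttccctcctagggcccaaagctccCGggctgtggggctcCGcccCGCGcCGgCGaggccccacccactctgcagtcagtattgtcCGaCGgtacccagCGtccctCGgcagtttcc
Crebbp, chr16:4213355-4213654, minus strand: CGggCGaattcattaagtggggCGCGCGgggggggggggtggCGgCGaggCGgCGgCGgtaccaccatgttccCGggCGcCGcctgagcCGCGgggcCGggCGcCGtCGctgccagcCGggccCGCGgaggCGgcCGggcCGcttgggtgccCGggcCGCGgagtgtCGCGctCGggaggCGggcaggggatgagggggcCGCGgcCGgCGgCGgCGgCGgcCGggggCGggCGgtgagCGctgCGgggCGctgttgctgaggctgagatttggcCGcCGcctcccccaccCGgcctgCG

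The Crebbp promoter held 49 CG dinucleotides, against a median of 11 over 22380 protein-coding promoters, whose quartiles were 3 and 23. The Med12 promoter held 22, and the others held 18 in Nipbl, 23 in Med1, 26 in Ep300, 27 in Brd2 and 30 in Cdk8. At another start of Brd2, 329 bp downstream, the promoter held 11. The letters TTCNNNGAA, a binding motif of STAT proteins that reads the same on both strands, were found in 7.94% of all these promoters and in none of these 7.

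All 7 genes carried an H3K27ac peak and an H3K4me3 peak within 1000 bp of the annotated 5′ end, in the lists of Rybp+/+ and of Rybp-/- ESCs. Of all 22380 protein-coding starts, 47.65% and 50.22% had an H3K27ac peak, and 63.8% and 63.96% an H3K4me3 peak, in the order Rybp+/+ and Rybp-/-. The authors merged the replicates before peak calling, so these lists allow no test between genotypes, and fold enrichment over input describes each peak within its own list. Brd2 had the highest H3K27ac enrichment of the 7 genes, at 61.8-fold in Rybp+/+ and 39.8-fold in Rybp-/- ESCs, at percentiles 99.97 and 99.43 of the lists. Ep300 was at 43.4-fold and 33.4-fold, Nipbl at 26.5-fold and 15.3-fold, and Med1 at 27.5-fold and 29.5-fold. Med12 had the lowest H3K27ac enrichment in Rybp+/+ ESCs, at 8.41-fold, and was at 7.71-fold in Rybp-/- ESCs. H3K4me3 enrichment was 60.3-fold and 63.6-fold at Brd2, 40.6-fold and 63.4-fold at Nipbl, and 27.0-fold and 24.4-fold at Med12. It was 41.7-fold and 34.3-fold at Ep300, 49.99-fold and 41.3-fold at Crebbp, 43.3-fold and 38.1-fold at Med1, and 48.0-fold and 38.7-fold at Cdk8.

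**Figure D2:**
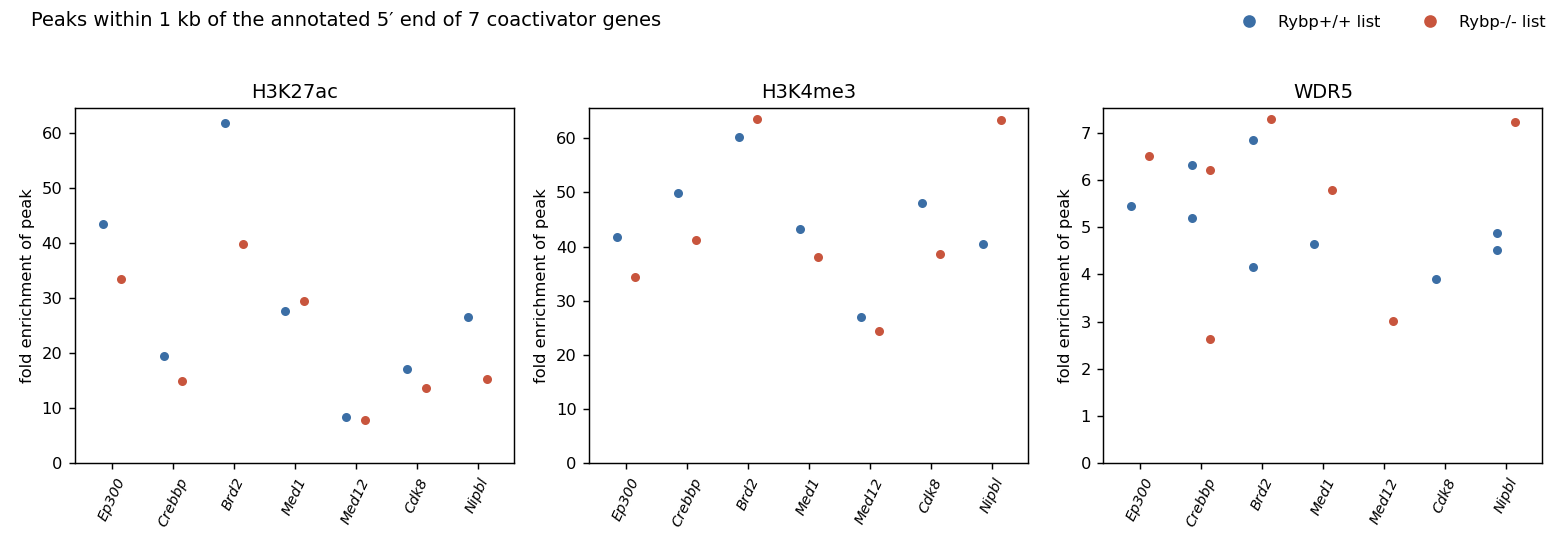
Fold enrichment over input, as the authors' peak caller gave it, of every peak within 1 kb of the annotated 5′ end of each of the 7 genes (y axis, 1 panel per antibody), in the lists of Rybp+/+ ESCs (blue) and Rybp-/- ESCs (red). A gene with 2 points of a colour has 2 peaks, and a gene with none of a colour has no peak in that list, as Med12 for WDR5 in Rybp+/+. H3K27ac at Brd2 stands at 61.8 and 39.8.

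WDR5 peaks lay within 1000 bp of 6 of the 7 annotated 5′ ends in each genotype, while 43.35% and 45.66% of all protein-coding starts had one. Med12 had a WDR5 peak in the Rybp-/- list only, at 3.01-fold, and Cdk8 in the Rybp+/+ list only, at 3.91-fold. STAT3 peaks were rare in R7.15 ESCs, where each genotype had 1 STAT3 library: 6.282% of starts had one in Rybp+/+ and 5.429% in Rybp-/-. Among the 7 genes Nipbl had one in the first list and Ep300 in the second. In R1 ESCs with DOX-inducible Rybp and Stat3, 2 of the 7 genes, Crebbp and Brd2, had a STAT3 peak without DOX and all 7 had one with DOX, in lists of 2816 and 30663 peaks that reached 7.721% and 52.52% of starts. RING1B, the catalytic subunit of Polycomb repressive complex 1, had peaks at 6 of the 7 genes without DOX and at 6 with DOX, where 50.83% and 38.43% of starts had one. The highest RING1B enrichment was at Cdk8, with 10.6-fold without and 8.18-fold with DOX.

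Differences of RNA level were tested with the quasi-likelihood method of edgeR, p-values were adjusted by Benjamini-Hochberg across every gene tested in a table, and a gene was called where the adjusted p fell under 0.05. In bulk RNA, fewer cells of a type and less RNA per cell cannot be told apart. In Rybp-/- ESCs, 1 of the 8 genes was higher and 5 were lower, with Med12, Nipbl, Cdk8 and Brd3 lower by the most. Of all 16955 genes tested in this table, 45.5% were called, 22.8% as higher and 22.7% as lower. The median log2 fold change was -0.16 over the 8 genes and 0.00 over all genes. Markers of fibroblast feeder cells rose in the same libraries, 8 of 8, from a summed level of 84.0 and 84.8 CPM to 164 and 170 CPM, and 5 of 8 primitive endoderm markers rose from 151 and 148 CPM to 255 and 253 CPM. Trophectoderm markers went from 164 and 167 CPM to 196 and 203 CPM (6 of 8 higher), and mitochondrial genes from 1.44% and 1.36% of counts to 1.67% and 1.68%. The part of these cells and shares in the result was not tested.

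In shRybp ESCs, 5 of the 8 genes were higher and 0 lower, where 52.7% of all 16538 genes were called, 26.8% as higher and 26.0% as lower. These 5 were Med12, Brd2, Crebbp, Med1 and Ep300. The median log2 fold change was 0.17 over the 8 genes, 0.02 over all genes and 0.10 over genes of at least 5 kb, a length that the 8 genes exceed except Cdk8. Leaving out shRybp replicate 2 left 2 of the 8 genes called. Scaling by library totals alone moved the median of all genes to 0.18 and the share of called genes that were higher from 50.8% to 71.2%. Primitive endoderm markers rose from 201 and 194 CPM to 577 and 606 CPM in these libraries (7 of 8 higher), and trophectoderm markers from 131 and 145 CPM to 333 and 350 CPM (6 of 8 higher and 1 lower). Feeder markers went from 18.7 and 18.9 CPM to 32.7 and 31.2 CPM (4 of 4 tested higher), neural markers from 318 and 332 CPM to 241 and 245 CPM (2 of 5 tested higher and 2 lower) and ESC markers from 8408 and 8653 CPM to 7262 and 7217 CPM (3 of 8 higher and 4 lower). The part of these cells in the result was not tested.

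In shWdr5 ESCs, 7 of the 8 genes were higher and 1, Cdk8, was lower. This table had the most calls of all, 63.0% of 15143 genes, with 31.5% higher and 31.5% lower. The median log2 fold change of the 8 genes was 0.41, against -0.01 for all genes and 0.12 for genes of at least 5 kb. Primitive endoderm markers stood at 190 and 183 CPM in shEV and at 429 and 435 CPM in shWdr5 libraries (6 of 8 higher). Trophectoderm markers stood at 124 and 138 CPM and at 267 and 280 CPM (4 of 7 higher and 1 lower), neural markers at 300 and 313 CPM and at 187 and 197 CPM (2 of 5 higher and 2 lower), and 6 of 8 ESC markers were lower and 1 higher. Reads of no feature came to 10.3 and 9.70 per 100 gene counts in shWdr5 against 7.61 and 7.36 in shEV libraries, and mitochondrial genes to 1.23% and 1.33% of counts against 0.912% and 0.796%. The part of these cells and of these shares was not tested. The shEV libraries are shared with the Rybp knockdown, and their counts in this table were 0.509 and 0.506 of those in the other, so the calls of the knockdowns are not independent of each other.

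Between 0 and 3 of the 8 genes were called in each of the other 4 tables. In TF-AA mutation ESCs, 2 of the 8 genes, Cdk8 and Ep300, were lower and 0 higher, with 30.5% of 14456 genes called, 14.4% higher and 16.1% lower. Leaving out either TF-AA mutation library left 0 of the 8 genes called. In RYBP phase disruption ESCs, Med12 and Cdk8 were lower and 0 genes higher, with 33.0% of 14575 genes called, 16.1% higher and 17.0% lower. DESeq2 called 0 of the 8 genes there, and so did edgeR without WT.RYBP replicate 1 or without phase disruption replicate 2. Primitive endoderm markers in the TF-AA table stood at 121 and 109 CPM in WT ESC and 201 and 203 CPM in TF-AA mutation libraries (3 of 6 tested higher), and trophectoderm markers at 83.3 and 81.9 CPM and at 106 and 100.4 CPM (3 of 5 tested higher). Feeder markers there were at 11.6 and 11.0 CPM and at 24.2 and 24.6 CPM (3 of 3 tested higher), and mitochondrial genes made up 1.63% and 1.88% of counts in WT ESC and 2.25% and 2.44% in TF-AA mutation libraries. Feeder markers fell in phase disruption libraries from 597 and 579 CPM to 455 and 480 CPM (5 of 8 lower), and were higher in both groups of that table than in any other table. Trophectoderm markers rose there from 393 and 401 CPM to 509 and 535 CPM (5 of 7 tested higher). The part of these markers and shares was not tested. In Tet.RYBP.DOX ESCs, 0 of the 8 genes were called by edgeR and 0 by DESeq2, and 1, Crebbp, had an unadjusted p under 0.05. There, 6.02% of 14937 genes were called, 3.63% higher and 2.39% lower. Without Tet.RYBP.vehicle replicate 1, Nipbl was called as lower. In the libraries labelled rTRS DOX, Med12 and Ep300 were higher and Cdk8 was lower, with 43.4% of 16291 genes called, 23.0% higher and 20.4% lower. Without rTRS NTC replicate 1 only Med12 was called. These libraries also held less of an ESC marker, Zfp42, at 271 and 282 CPM against 880 and 897 CPM. They held more of the mesoderm marker T, at 31.2 and 29.9 CPM against 1.45 and 1.56 CPM, which was the only one called of 6 mesoderm markers tested. Trophectoderm markers summed to 1064 and 989 CPM there against 268 and 258 CPM (5 of 7 tested higher), and 6 of 8 ESC markers were lower. Primitive endoderm markers were at 374 and 359 CPM against 204 and 198 CPM (3 of 7 tested higher). Neural markers were at 87.2 and 81.5 CPM against 156 and 145 CPM (1 of 4 tested higher and 3 lower). The part of these cells in the result was not tested.

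**Figure D3:**
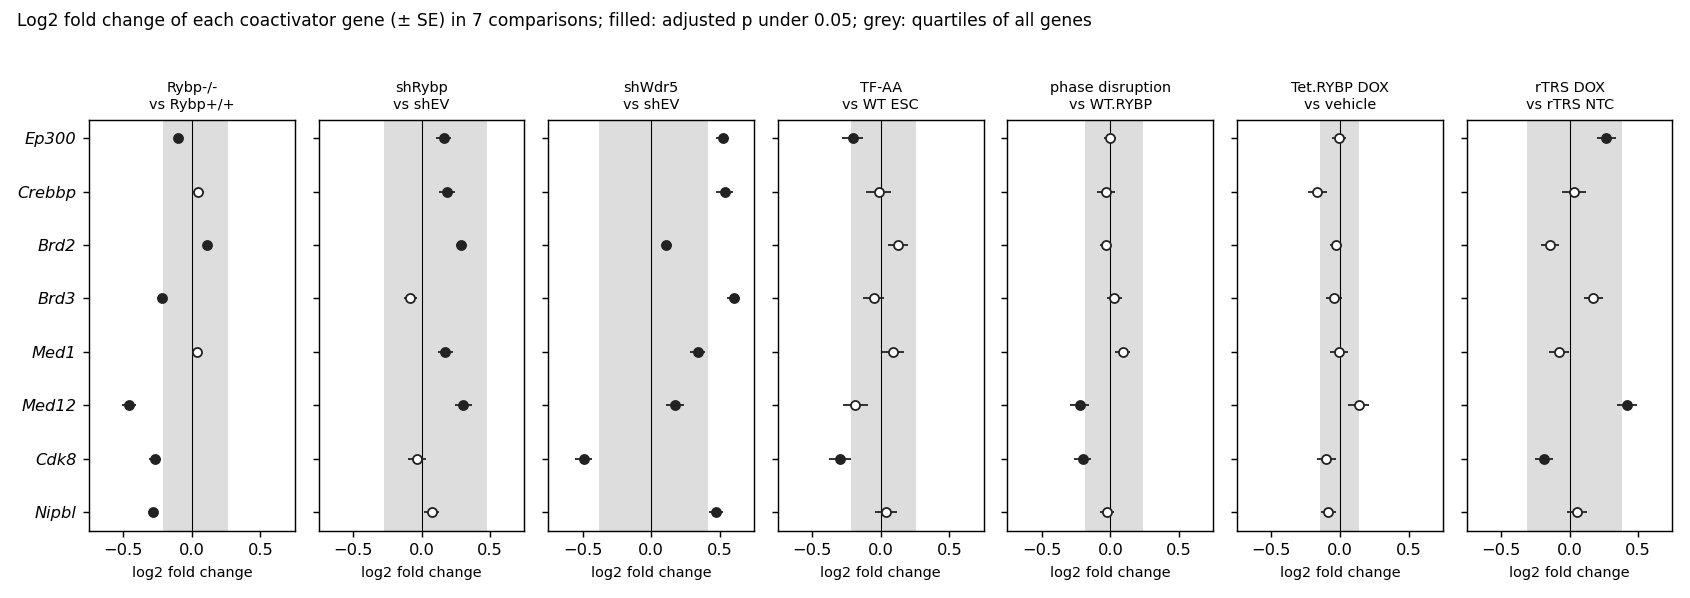
Log2 fold change of each of the 8 genes (rows) with its standard error (bar) in the 7 comparisons (panels), test group against control. Filled points have an adjusted p under 0.05, and the grey band spans the lower to the upper quartile of all genes tested in that table. In the shWdr5 panel Ep300, Crebbp, Brd3 and Nipbl lie to the right of the band and Cdk8 to its left, while in the Tet.RYBP panel 0 points are filled.

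The acetyltransferases Ep300 and Crebbp moved most in shWdr5 ESCs. Ep300 was at 171 and 189 CPM in shEV and at 260 and 256 CPM in shWdr5 libraries. Crebbp was at 73.7 and 83.0 CPM in shEV and at 115 and 112 CPM in shWdr5 libraries. Both shWdr5 libraries were thus above both shEV libraries for each gene. The log2 fold changes were 0.52 ± 0.05 (SE, adjusted p = 4.5e-09) for Ep300 and 0.54 ± 0.06 (adjusted p = 4.2e-08) for Crebbp, rises of 43.5% and 45.0%. With the trend of fold change with gene length removed, Ep300 was at 0.32. In shRybp ESCs, Ep300 was at 206 and 218 CPM against 180 and 199 CPM in shEV, and Crebbp was at 92.7 and 96.3 CPM against 78.4 and 88.0 CPM. The groups did not overlap, and the log2 fold changes of 0.16 and 0.18 were called (adjusted p = 0.015 for each). With the length trend removed, the call of Crebbp was lost and Ep300 turned to -0.02 (not called), and with library totals they were at 0.34 and 0.32. Both calls were also lost without shEV replicate 1 or without shRybp replicate 2.

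In Rybp-/- ESCs, Ep300 was at 270 and 275 CPM, below the 288 and 297 CPM of Rybp+/+ ESCs. This fall of 6.71% (log2 fold change -0.10, adjusted p = 0.01) was the smallest of those called, and it was lost when either Rybp-/- library was left out. It was also lost with upper quartile normalization (-0.043, adjusted p = 0.29) and with the length trend removed (-0.020, adjusted p = 0.67). Crebbp was at 67.1 and 68.8 CPM against 64.4 and 67.4 CPM, and the groups overlapped (log2 fold change 0.05, adjusted p = 0.44). Ep300 was also lower in TF-AA mutation ESCs, at 180 and 178 CPM against 207 and 204 CPM (log2 fold change -0.20, adjusted p = 0.045). This call was lost in 6 of 11 alternatives, with upper quartile normalization (-0.13), library totals, DESeq2 and the length trend removed and without either TF-AA mutation library. In libraries labelled rTRS DOX it was higher, at 178 and 187 CPM against 144 and 159 CPM (log2 fold change 0.27, adjusted p = 0.0067), a call lost without NTC replicate 1. Crebbp had its lowest level of all tables in the rTRS line, at 31.7 and 33.2 CPM in NTC and 34.3 and 32.1 CPM in DOX libraries, which overlapped. In Tet.RYBP.DOX ESCs, Crebbp was at 69.1 and 66.1 CPM, below the 76.7 and 74.9 CPM with vehicle, but the difference was not called (log2 fold change -0.16, adjusted p = 0.20). In RYBP phase disruption ESCs both genes overlapped with their controls, Ep300 at 334 and 312 CPM against 323 and 324 CPM and Crebbp at 74.2 and 71.7 CPM against 75.3 and 74.0 CPM.

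The BET genes Brd2 and Brd3 were both higher in shWdr5 ESCs, while in Rybp-/- ESCs Brd2 was higher and Brd3 lower. Brd2 was called as higher in 3 of the 7 comparisons and lower in 0. It was at 937 and 961 CPM in shRybp against 760 and 793 CPM in shEV ESCs, a rise of 22.2% with no overlap (log2 fold change 0.29 ± 0.04, adjusted p = 6.5e-06), or 0.17 with the length trend removed and 0.45 with library totals. In Rybp-/- ESCs it was at 823 and 806 CPM against 747 and 765 CPM, a rise of 7.76% (log2 fold change 0.11, adjusted p = 0.0018), a call lost without Rybp-/- replicate 1, and 0.16 with upper quartile normalization. In shWdr5 ESCs it was at 781 and 797 CPM against 715 and 747 CPM (log2 fold change 0.11, adjusted p = 0.023), a call lost with upper quartile normalization, with the length trend removed, and without shEV replicate 1 or either shWdr5 library. In the other 4 tables Brd2 was not called, with log2 fold changes from -0.14 in libraries labelled rTRS DOX to 0.13 in TF-AA mutation ESCs. It became called as lower in rTRS DOX in 5 alternatives, at down to -0.21, among them upper quartile normalization, the replicate block and the length trend removed, and as higher in TF-AA mutation with upper quartile normalization (0.21, adjusted p = 0.031).

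Brd3 had the largest fold change of the 8 genes in any comparison. It was at 148 and 154 CPM in shEV and at 222 and 237 CPM in shWdr5 ESCs, a rise of 51.7% (log2 fold change 0.60 ± 0.05, adjusted p = 3e-10). The groups were far apart, and every alternative kept the call. Brd3 and Wdr5, the gene knocked down in these cells, lie next to each other on chromosome 2 on opposite strands. In the knockout Brd3 was lower, at 129 and 128 CPM against 151 and 149 CPM, a fall of 14.2% (log2 fold change -0.22 ± 0.04, adjusted p = 4.7e-06). It was not called in the other 5 tables, and came closest in libraries labelled rTRS DOX, at 157 and 168 CPM against 138 and 150 CPM (adjusted p = 0.057). There it became called as higher in 5 alternatives, the replicate block, library totals and no filter among them, and with the length trend removed it was called as lower in shRybp (-0.20, adjusted p = 0.0013).

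Of the Mediator genes, Med12 had the widest range, from a log2 fold change of -0.46 to 0.42 over the 7 comparisons. It was at 50.3 and 50.2 CPM in Rybp+/+ and at 36.8 and 36.4 CPM in Rybp-/- ESCs. This fall of 27.2% was the largest among the 8 genes in the knockout (log2 fold change -0.46 ± 0.05, adjusted p = 5e-09). In shRybp ESCs it was at 58.6 and 63.0 CPM against 48.8 and 49.7 CPM in shEV, a rise of 23.5% (log2 fold change 0.30 ± 0.06, adjusted p = 0.00046), or 0.18 with the length trend removed and 0.46 with library totals. Med12 thus lay below its control in one loss of Rybp and above it in the other, with no overlap in either table. In libraries labelled rTRS DOX it was at 71.3 and 68.6 CPM against 51.0 and 53.8 CPM, a rise of 33.6% (log2 fold change 0.42 ± 0.07, adjusted p = 0.00055). In RYBP phase disruption ESCs it was lower, at 51.8 and 49.6 CPM against 58.6 and 59.8 CPM (log2 fold change -0.22, adjusted p = 0.015), a call lost in 5 alternatives, with library totals, with DESeq2 and without any one of 3 libraries. In shWdr5 ESCs it was at 50.5 and 53.2 CPM against 45.5 and 46.4 CPM (log2 fold change 0.18, adjusted p = 0.022), a call lost with upper quartile normalization, DESeq2 and the length trend removed, and without shEV replicate 1 or shWdr5 replicate 2. The values in TF-AA mutation ESCs were 45.5 and 48.7 CPM against 54.9 and 52.2 CPM (adjusted p = 0.13, and 0.041 with the replicate block, called as lower), and in Tet.RYBP.DOX ESCs 66.8 and 64.3 CPM against 59.1 and 60.0 CPM (adjusted p = 0.34). In the annotation, exons of Med12 share 749 bp with exons of Nlgn3 on the same strand, whose counts ran from 5 to 166 per library column against 739 to 4038 for Med12.

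Cdk8, the kinase of the same module, was the gene called as lower most often, in 5 of the 7 comparisons, and as higher in 0. In shWdr5 ESCs it was at 89.7 and 84.3 CPM against 113 and 131 CPM in shEV, a fall of 28.8% (log2 fold change -0.49 ± 0.06, adjusted p = 4.4e-07). In the knockout it was at 70.4 and 68.0 CPM against 82.9 and 84.0 CPM, a fall of 17.1% (log2 fold change -0.27 ± 0.04, adjusted p = 2.8e-06). These groups did not overlap, and the same held for the other 3 falls. Cdk8 was at 108 and 113 CPM in TF-AA mutation against 128 and 144 CPM in WT ESC libraries (log2 fold change -0.30, adjusted p = 0.008). It was at 83.4 and 79.7 CPM in phase disruption against 96.7 and 90.9 CPM in WT.RYBP libraries (log2 fold change -0.20, adjusted p = 0.011). In libraries labelled rTRS DOX it was at 106 and 108 CPM against 125 and 119.3 CPM in NTC libraries (log2 fold change -0.19, adjusted p = 0.032). These 3 calls depended on the alternatives: that in rTRS DOX was lost with library totals and without any one of the 4 libraries, and that in TF-AA mutation without either mutant library. The call in phase disruption was lost with library totals, DESeq2 and no filter, and without WT.RYBP replicate 1 or phase disruption replicate 2. In shRybp ESCs it was at 130 and 120 CPM against 118 and 137 CPM, which overlapped, and its log2 fold change of -0.03 turned to 0.02 with upper quartile normalization and 0.13 with library totals. Without shEV replicate 1 it was -0.14 and called as lower (adjusted p = 0.04).

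Med1 was called as higher in both knockdowns. It was at 92.7 and 88.4 CPM in shWdr5 against 72.5 and 70.7 CPM in shEV ESCs, a rise of 26.5% (log2 fold change 0.34 ± 0.06, adjusted p = 1.5e-05), or 0.19 with the length trend removed. In shRybp ESCs it was at 86.6 and 84.9 CPM against 76.8 and 75.2 CPM (log2 fold change 0.17, adjusted p = 0.011), a call lost when the length trend was removed or either shRybp library left out. In the knockout it was at 111 and 111 CPM against 109 and 107 CPM and was not called (adjusted p = 0.45), but it was called as higher with upper quartile normalization (adjusted p = 0.039) and with the length trend removed (adjusted p = 0.028). In phase disruption ESCs it was called as higher with library totals alone (adjusted p = 0.048).

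Nipbl, the cohesin loader, fell in the Rybp knockout and rose in the Wdr5 knockdown, each against its own control. It was at 130 and 129 CPM in Rybp-/- against 162 and 154 CPM in Rybp+/+ ESCs, a fall of 18.0% (log2 fold change -0.29 ± 0.04, adjusted p = 7.6e-08). In shWdr5 ESCs it was at 143 and 140 CPM against 104 and 100 CPM in shEV, a rise of 38.9% (log2 fold change 0.47 ± 0.05, adjusted p = 3.1e-08). Neither pair of groups overlapped. In shRybp ESCs Nipbl was at 111 and 118 CPM against 111 and 107 CPM and was not called (log2 fold change 0.07, adjusted p = 0.27), but with library totals alone it was called as higher (0.23, adjusted p = 0.0014). It was not called in the other 4 tables, where its log2 fold change ran from -0.09 with DOX in Tet.RYBP ESCs to 0.05 in libraries labelled rTRS DOX.

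Rybp was lost in 2 ways in the series, so the effect of knockout was compared with that of knockdown in one fit over the 8 libraries, as an interaction term. For 5 of the 8 genes the knockout effect was called as lower than the knockdown effect. A difference in either direction was called for 40.5% of 18203 genes tested, and the share in each direction is not given here. The difference was -0.74 ± 0.08 (log2, SE, adjusted p = 8.1e-08) for Med12 and -0.34 ± 0.06 (adjusted p = 0.00016) for Nipbl. It was -0.24 (adjusted p = 0.0036) for Ep300, -0.22 (adjusted p = 0.038) for Cdk8 and -0.16 (adjusted p = 0.0094) for Brd2. For Crebbp, Brd3 and Med1 it was -0.12, -0.11 and -0.11 and was not called (adjusted p of 0.25, 0.13 and 0.16). With the trend of gene length removed, an alternative added after seeing the data, only the difference of Med12 was called (-0.57, adjusted p = 2.9e-06). In that fit Nipbl was at -0.13, Ep300 at 0.020, Cdk8 at -0.19 and Brd2 at -0.0064 (adjusted p of 0.12, 0.83, 0.065 and 0.94). With library totals alone, also added, all 8 differences were called, between -0.27 and -0.90. The difference of Cdk8 was not called by DESeq2 or without any one of 6 of the 8 libraries, at down to -0.11 without shEV replicate 1, and leaving out replicate 2 of Rybp+/+ or of Rybp-/- left 3 of the 8 genes called. The knockout was made in R7.15 with 4-OHT and the knockdown in R1 with a hairpin, so line, method and the extent of the loss cannot be told apart.

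**Figure D4:**
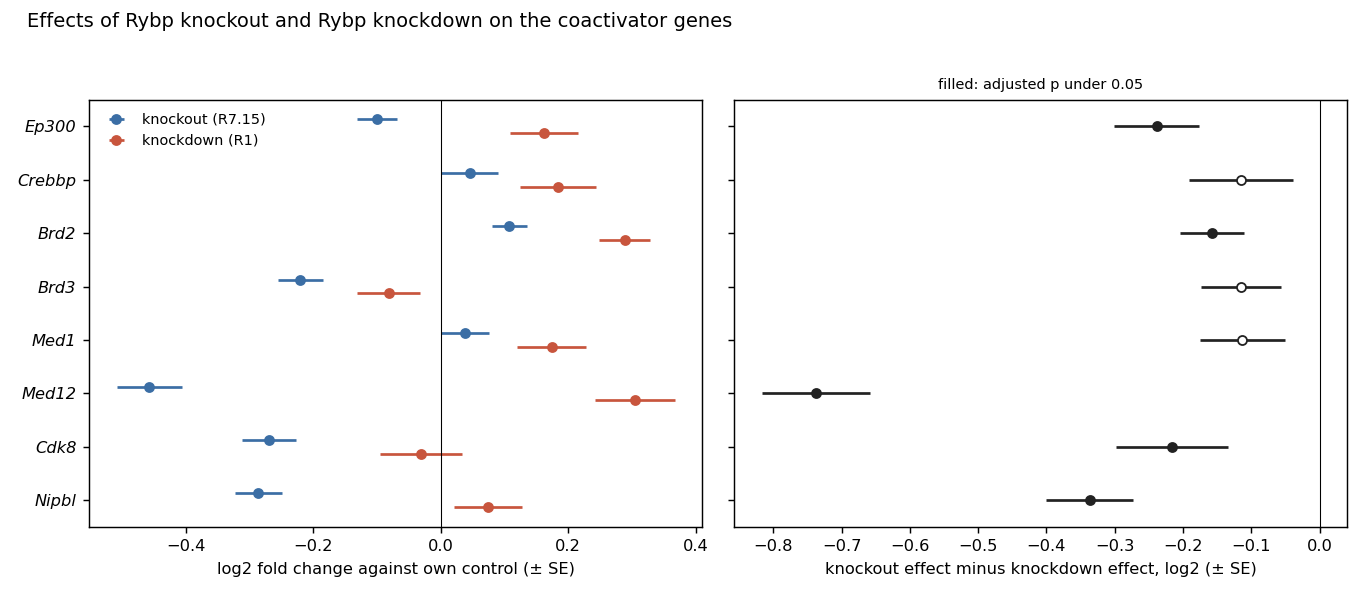
Left, log2 fold change with its standard error of each of the 8 genes in Rybp knockout ESCs against Rybp+/+ (blue) and in Rybp knockdown ESCs against shEV (red). Right, knockout effect minus knockdown effect in log2 units with its standard error, from one fit of both tables, with filled points for adjusted p under 0.05. Med12 is at -0.46 and 0.30 on the left and at -0.74 on the right, and all 8 differences lie below 0, of which 4 (Ep300, Crebbp, Brd3 and Med1) lie above 0 with the length trend removed.

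Other genes of the same complexes were taken from lists by name, and their counts stand beside the shares of all genes called: 63.0% in shWdr5, 52.7% in shRybp, 45.5% in Rybp-/-, 30.5% in TF-AA mutation, 33.0% in phase disruption, 6.02% in Tet.RYBP.DOX and 43.4% in rTRS DOX. Of the other Mediator subunits, 29 of 30 were tested, since Med10 was listed at 0 in every library. In shWdr5 ESCs 5 of these 29 were higher and 9 lower, with a median log2 fold change of -0.09 beside -0.01 for all genes. Those lowered included Med22 of the head, at 36.6 and 39.6 CPM against 55.3 and 56.4 CPM (log2 fold change -0.55, adjusted p = 1.9e-07), and Med9 of the middle (log2 fold change -0.55, adjusted p = 1.5e-07). A larger fall, of a subunit of the scaffold and tail, is not reported here. In shRybp ESCs 3 were higher and 8 lower, with Med9 at 33.8 and 31.0 CPM against 57.6 and 59.0 CPM (log2 fold change -0.85, adjusted p = 6.6e-09). In Rybp-/- ESCs 7 were higher and 4 lower, and Med31 of the middle rose (log2 fold change 0.49, adjusted p = 3.2e-06). The counts higher and lower were 4 and 2 in TF-AA mutation, 4 and 1 in phase disruption, 0 and 0 in Tet.RYBP.DOX, and 3 and 7 in libraries labelled rTRS DOX. Within the kinase module, the paralog of Cdk8, Cdk19, fell with it in Rybp-/- ESCs (22.4 and 22.7 CPM against 28.3 and 28.2 CPM, adjusted p = 6.3e-05) and rose in shWdr5 ESCs (17.5 and 16.0 CPM against 11.6 and 12.7 CPM, adjusted p = 0.00061). Med12l, the paralog of Med12, was at 7.93 and 8.38 CPM in shRybp against 2.50 and 2.93 CPM in shEV ESCs (log2 fold change 1.59, adjusted p = 2.7e-07). It was also higher in TF-AA mutation ESCs, at 7.45 and 7.20 CPM against 2.62 and 2.81 CPM, and in phase disruption ESCs, at 15.7 and 16.7 CPM against 6.91 and 7.17 CPM.

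The same shares, 45.5% in Rybp-/-, 52.7% in shRybp and 63.0% in shWdr5, stand beside the counts of the other lists, and nothing particular to a list is read from them. Of 14 cohesin genes and regulators, 3 were higher and 6 lower in Rybp-/- ESCs, and Stag2, a cohesin subunit, was at 86.8 and 88.3 CPM against 135 and 125 CPM (log2 fold change -0.57, adjusted p = 1.9e-13). In shRybp ESCs 1 was higher and 9 lower, and in shWdr5 ESCs 5 were higher and 4 lower, with Stag1 at 136 and 131 CPM against 76.0 and 82.9 CPM (log2 fold change 0.75, adjusted p = 4.9e-11). Of 10 other acetyltransferases, 7 were higher and 1 lower in shWdr5 ESCs, led by Ncoa2, a coactivator of nuclear receptors, at 81.2 and 79.8 CPM against 44.9 and 45.6 CPM (log2 fold change 0.83, adjusted p = 2.8e-11). Ncoa2 was lower in Rybp-/- ESCs (log2 fold change -0.46, adjusted p = 7.9e-10), where 1 of the 10 was higher and 4 lower, and in shRybp ESCs 2 were higher and 4 lower. Of 13 genes of P-TEFb, its regulators and elongation factors, 7 were higher and 1 lower in shWdr5, 2 higher and 7 lower in shRybp, and 6 higher and 4 lower in Rybp-/- ESCs. Ell2 of this list rose in shWdr5 (log2 fold change 0.63, adjusted p = 3.4e-08) and fell in TF-AA mutation ESCs (log2 fold change -0.87, adjusted p = 1.2e-07). In Tet.RYBP.DOX ESCs 2 of all 68 pathway genes tested were called, both lower: Pds5b of the cohesin list (log2 fold change -0.21, adjusted p = 0.049) and Aff4 of the elongation list (log2 fold change -0.18, adjusted p = 0.015).

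The genes whose 7 fold changes lay closest to those of Med12, among 13126 genes tested in every table, were E2f7, Sema4d and C330006D17Rik, at Euclidean distances of 0.24, 0.26 and 0.27 in log2 units. E2f7, a repressor of the E2F family, had log2 fold changes of -0.50 in the Rybp knockout, 0.23 in its knockdown and 0.28 in libraries labelled rTRS DOX. For Brd3 the closest were Pja2, Patl1 and Top2b, at 0.15, 0.18 and 0.19, with log2 fold changes of 0.58, 0.62 and 0.51 in shWdr5 ESCs. These distances describe likeness over 7 comparisons, of which both knockdowns share their control libraries.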

How the data were processed

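The 8 genes and the lists of other genes were chosen with earlier results of these data known. Per the labels and the study's methods, the authors trimmed the RNA-seq reads with Trim Galore, aligned them to mm9 with STAR and deposited raw counts per gene from HTSeq, whose strand setting is not given in the sources used here. The methods describe the knockout and knockdown libraries, and the other tables carry the same tools in their labels. For peaks of histone marks and WDR5, the authors pooled the replicates of an antibody and ran MACS2 with input as background, and the deposited lists give fold enrichment and -log10 q. The caller of the STAT3 and RING1B lists is not given in the sources used here.

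Here each table was fitted alone in edgeR 4.0.16 (R 4.3.3, limma 3.58.1) with TMM scaling, filterByExpr (minimum count 10, minimum total 15), the quasi-likelihood test and Benjamini-Hochberg adjustment over all genes tested, and a gene was called at adjusted p under 0.05. CPM are TMM-scaled. Depth was 14512857 to 81049618 counts per library, and replicates differed by more than sampling noise, with a chi-square per degree of freedom of 2.07 to 12.4. Rows that name no gene stayed out of totals: reads of no feature came to 5.08 to 11.0 per 100 gene counts and ambiguous reads to 3.15 to 3.82, in the tables that list them. Of 37620 gene IDs, 37205 had a GENCODE name, and 1 listed marker, Sox1, had none. Knockout and knockdown were compared by an interaction term. Columns headed NTC and DOX in the overexpression table were taken as Tet.RYBP.vehicle and Tet.RYBP.DOX, the WT columns of 2 tables as WT ESC and WT.RYBP by the table they stand in, and a column whose name adds S5 as rTRS DOX replicate 2. Alternatives were RLE, upper quartile and total-count scaling, DESeq2 1.42.0, no filter, a replicate block, removal of the trend with gene length (lowess, span 0.3), an added limit of 0.5 on the log2 fold change, and leaving out each library; library totals and length trend were added for the difference between knockout and knockdown after seeing the data. The fits were tested on simulated data. Named besides the 8 genes are Rybp, Wdr5 and Stat3, some of the genes with the largest called change in a list (mean CPM of at least 1), and the 3 nearest patterns of Med12 and Brd3. Zfp42 and Nlgn3 were named after their values had been seen. Some items, and positions at Brd3, are not reported here.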

Additional observations from a re-analysis of the deposited data

Results flagged for a closer look

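A knockout minus knockdown difference that passed the interaction test (edgeR's quasi-likelihood test, Benjamini-Hochberg adjustment over 18203 genes) was the reason to single out 5 results. Med12 differed by -0.74 on the log2 scale (adjusted p = 8.1e-08), with a fold change of -0.46 in Rybp-/- and 0.30 in shRybp ESCs. Nipbl differed by -0.34 (adjusted p = 0.00016), with -0.29 and 0.07. The difference of Ep300 was -0.24 (adjusted p = 0.0036), with -0.10 and 0.16. For Cdk8 it was -0.22 (adjusted p = 0.038), with -0.27 and -0.03, and for Brd2 -0.16 (adjusted p = 0.0094), with 0.11 and 0.29. The Cdk8 call was lost in 8 of 15 alternatives, with DESeq2, with the length trend removed and without either Rybp+/+ or Rybp-/- library, shEV replicate 1 or shRybp replicate 1, where the difference was down to -0.11. The Brd2 call was lost without replicate 2 of Rybp+/+ or of Rybp-/-. With the length trend removed, the difference of Ep300 was 0.020, that of Brd2 -0.0064 and that of Nipbl -0.13, and only Med12 was called. Line and method differ between the losses of Rybp and cannot be told apart.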

How the results depend on the processing

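Each group had 2 libraries, so its own spread rests on 1 pair, and the fits pool the spread over groups and moderate it across genes. The peak lists carry no read depth. Of 56 fold changes, 56 kept direction and side of the threshold with RLE, 54 without the filter on low counts, 53 with the replicate block, 52 with DESeq2, 42 with library totals, and 40 each with upper quartile scaling and with the length trend removed. Leaving out a library kept 177 of 224. The differences between knockout and knockdown were kept in 8 of 8 with RLE, upper quartile, no filter and replicate block, in 7 with DESeq2, in 5 with library totals and 1 with the length trend removed (both added after seeing the data), and in 55 of 64 fits without a library. In every alternative run apart from the added limit on fold change, direction and call were kept by Med12, Nipbl, Cdk8 and Brd3 in the knockout, Brd2 and Med12 in shRybp, Ep300, Crebbp, Brd3, Med1, Cdk8 and Nipbl in shWdr5, Med12 in libraries labelled rTRS DOX, and the difference of Med12.

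A further limit of 0.5 on the absolute log2 fold change left 0 of the 8 genes called in Rybp-/-, 0 in shRybp, 3 in shWdr5, 0 in TF-AA mutation, 0 in phase disruption and 0 in libraries labelled rTRS DOX. With the length trend removed, 3 were called in shRybp (Brd2 and Med12 as before, and Brd3 newly as lower), 1 in TF-AA mutation and 1 difference between knockout and knockdown. With library totals 8 differences were called. In TF-AA mutation, 1 was called with library totals and 1 with DESeq2. In phase disruption, 1 was called with library totals (Med1, newly as higher, while Med12 and Cdk8 were lost), 1 with no filter and 0 with DESeq2. With the replicate block, 5 were called in libraries labelled rTRS DOX and the other counts stayed within 1.5 times. Deviations of libraries with the same number correlated at -0.0214 to 0.0736 across genes. As each table holds 2 pairs, this cannot show whether the numbers pair the libraries. Calls over all genes went from 7070 to 8559 in libraries labelled rTRS DOX with the replicate block, and from 4412 to 5525 in TF-AA mutation.

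Without one library, the count ran from 4 to 6 in Rybp-/-, 2 to 5 in shRybp (2 without shRybp replicate 2), 6 to 8 in shWdr5, 0 to 2 in TF-AA mutation (0 without either of its libraries) and 0 to 2 in phase disruption (0 without WT.RYBP replicate 1 or phase disruption replicate 2, 1 without WT.RYBP replicate 2). It ran from 0 to 1 in Tet.RYBP.DOX (1 without vehicle replicate 1), 1 to 4 with rTRS DOX (1 without NTC replicate 1) and 3 to 6 for the difference (3 without replicate 2 of Rybp+/+ or of Rybp-/-).

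Among reversed fold changes and differences, all but 2 concerned values not called at first, and the cause was not tested. With the length trend removed, the difference was 0.020 for Ep300, called at first, 0.050 for Crebbp, 0.044 for Brd3 and 0.091 for Med1. The other exception was Ep300 in shRybp, at -0.023 with the length trend removed, where Nipbl was at -0.075. In shRybp, Cdk8 was at 0.023 with upper quartile and 0.13 with library totals, and Brd3 at 0.076 with library totals. In TF-AA mutation, Crebbp was at 0.062 with upper quartile, 0.021 with library totals and 0.026 with the length trend removed, and Brd3 at 0.026 with upper quartile. In phase disruption, upper quartile and library totals gave 0.034 and 0.050 for Ep300, 0.0019 and 0.019 for Crebbp, 0.0024 and 0.019 for Brd2, and 0.012 and 0.028 for Nipbl, and the length trend gave 0.045 for Ep300 and 0.0054 for Nipbl. In libraries labelled rTRS DOX, upper quartile and length trend gave -0.025 and -0.034 for Crebbp, and -0.0058 and -0.022 for Nipbl. Without one library, values ran from -0.14 to 0.072 for Cdk8 in shRybp, -0.080 to 0.041 for Crebbp and -0.060 to 0.13 for Nipbl in TF-AA mutation, -0.053 to 0.043 for Ep300, -0.015 to 0.062 for Brd3 and -0.097 to 0.042 for Nipbl in phase disruption, -0.033 to 0.020 for Ep300 and -0.081 to 0.073 for Med1 in Tet.RYBP.DOX, and -0.015 to 0.082 for Crebbp and -0.024 to 0.13 for Nipbl with rTRS DOX.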
